A study of Mus musculus with 30 samples.

Results

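The mouse X chromosome carries several enzymes and carriers of central metabolism, and 10 of them were followed here: Slc25a5, Hprt, Prps1, Pdha1, Idh3g, Hsd17b10, G6pdx, Sat1, Sms and Acsl4. They were chosen by name and the rule used no measured value, but earlier results of these data were known at the choice. All 10 passed the expression limit, a mean above 5 TPM (counts per base of exon, scaled to the same sum in each library) in the XX Rnf12 +/- libraries, and they make up 10 of 477 expressed X-linked genes and of the 55421 genes in the table. The question was what happens to the RNA of these genes when a cell holds 1 copy in place of 2.

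Bulk RNA-seq covered 30 libraries of female mouse embryonic stem cells (mESCs) of the hybrid strain 129/Sv x Cast/Ei, whose alleles can be told apart at SNPs. XX wild type cells (2 libraries) keep both X chromosomes whole. XX Rnf12 +/- cells (2 libraries) lack Rnf12, also named Rlim, on the 129 X, and every other line carries that loss or lacks the 129 X. The 13 deletion lines (22 libraries) each lack a large segment of the 129 X in Rnf12 +/- cells and still carry the neomycin cassette used to make it, so that genes inside the segment have only the Cast copy. Deletion A, B, AB and C-G are 1 clone and 1 library each, so their tests take the spread from the other groups, and the others are 2 clones, Deletion AB, C-G and I-TEL arose as losses larger than intended, and Deletion J and I-TEL come from a second Rnf12 +/- founder line. XCastO129 cells (2 libraries) keep the Cast X alone, and X129OCast cells (2 libraries) keep the Rnf12-deleted 129 X alone. The p-values of the main fits measure the spread between libraries of the same group, estimated over all groups at once, and not the spread between lines. Where 2 libraries of a group are not described as separate clones, their spread may be technical.

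The library names fall into 3 series, called here the XX series (6 libraries of 20375194 to 21181405 counts, holding Deletion E beside both groups of XX cells), the deletion series (20 libraries of 8816184 to 10680026 counts) and the XO series (4 libraries of 14998265 to 16494893 counts). The XO libraries were single reads of 50 bases and the others paired reads, so an XO line cannot be told apart from its read type, sequencer and series in any comparison with XX cells. Rlim had 689 and 718 counts of the 129 allele in XX wild type and 0 to 43 in all other libraries, as the labels say. The pluripotency gene Pou5f1 stood between 1519.5 and 2160.5 TPM in all 30 libraries. The summed level of 13 fibroblast markers, for the feeder cells on which the mESCs grew, was 1910.2 TPM in replicate 1 of XX wild type, 2449 in replicate 1 of XX Rnf12 +/-, 1802 and 2450.0 in Deletion E, and 671 to 1276 in the other 26 libraries. Of the 13 markers, 11 were over 1 TPM in each library with a high sum. Replicate 2 of XX wild type had 12 and replicate 2 of XX Rnf12 +/- had 13, so not every marker followed the sum.

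Cells use these genes in a few connected routes. Slc25a5 (adenine nucleotide translocase 2) exchanges ADP for ATP across the inner mitochondrial membrane, Pdha1 is the catalytic alpha subunit of the pyruvate dehydrogenase complex that feeds acetyl-CoA to the citrate cycle, Idh3g is a regulatory subunit of the NAD-dependent isocitrate dehydrogenase of that cycle, and Hsd17b10 is a mitochondrial dehydrogenase that also serves as a subunit of mitochondrial RNase P. G6pdx opens the pentose phosphate pathway, Prps1 turns its product ribose 5-phosphate into PRPP, and Hprt uses PRPP to salvage hypoxanthine and guanine. Sat1 acetylates spermidine and spermine for their breakdown, Sms makes spermine, and Acsl4 activates long polyunsaturated fatty acids as acyl-CoA.

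With both copies present, the members covered a wide range of level. In the deletion series, where most libraries keep both copies, Slc25a5 was the highest, with 978 at the lowest, 1536.5 at the median and 1955 TPM at the highest of 17 libraries. Hprt followed with 756, 946 and 1041 TPM over 17 libraries, and Prps1 with 488, 644 and 872 TPM over 16. These neighbours in the order overlapped in range. Pdha1 stood at 355, 432 and 542 TPM over 18 libraries, and overlapped both Prps1 above it and Idh3g below it, which had 337, 400.2 and 494 TPM over 19 libraries. Hsd17b10 (271, 293 and 319 TPM, n = 16) and G6pdx (157, 208 and 234 TPM, n = 19) overlapped neither neighbour. Sat1 (82.9, 103 and 148 TPM, n = 18), Sms (39.1, 65.7 and 97.9 TPM, n = 18) and Acsl4 (35.7, 49.5 and 74.6 TPM, n = 16) closed the order and overlapped in sequence.

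**Figure D1:**
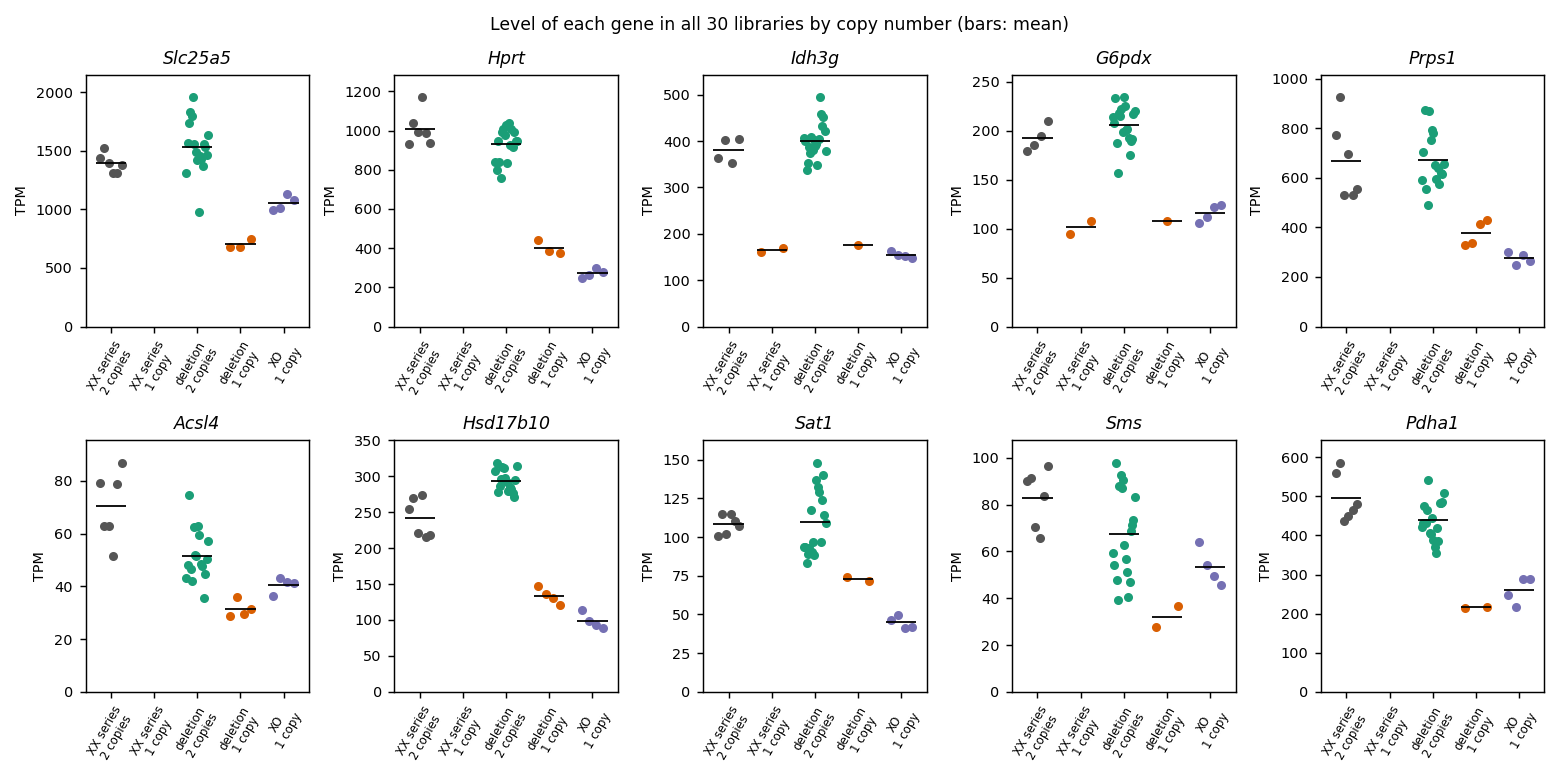
Level of each of the 10 genes in TPM (y axis, from 0) in all 30 libraries, set apart on the x axis by library series and by the copies of that gene. Points are libraries and bars are means. In the deletion series the orange 1-copy points lie below all green 2-copy points for every gene but Acsl4, where the highest 1-copy library (36.1 TPM) lies above the lowest 2-copy library (35.7 TPM).

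Loss of 1 copy inside a deletion lowered the total RNA of every member in every line that covered it. Slc25a5 lies at X:36795651-36798807 (mm10, plus strand) inside Deletion C and C-G. It had 675.6 and 680 TPM in Deletion C and 749.7 TPM in Deletion C-G, all below the lowest of the 17 libraries with both copies. Hprt (X:52988137-53021659, plus strand) lies inside Deletion D and C-G, with 388 and 373 TPM in Deletion D and 440.2 TPM in Deletion C-G. Those 3 libraries averaged 400.3 ± 35.3 TPM (SD, n = 3) against 929 ± 86.0 TPM (SD, n = 17) with both copies, and the ranges did not overlap.

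Idh3g (X:73778963-73786897, minus strand) and G6pdx (X:74409483-74429194, minus strand) lie close together inside Deletion E and C-G. Idh3g had 161 and 169 TPM in Deletion E, where the 4 XX libraries had 364, 402, 353 and 405 TPM, and 177 TPM in Deletion C-G. G6pdx had 94.6 and 108 TPM in Deletion E against 179, 186, 195 and 209.8 TPM in the XX libraries, and 108 TPM in Deletion C-G. In both series all 1-copy libraries of both genes were below all 2-copy libraries.

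Prps1 (X:140456613-140476140, plus strand) and Acsl4 (X:142317993-142390535, minus strand) lie inside Deletion J and I-TEL. Prps1 had 414 and 430.4 TPM in Deletion J and 329.6 and 339 TPM in Deletion I-TEL, below all 16 libraries with both copies. Acsl4 had 29.6 and 31.5 TPM in Deletion J and 28.8 and 36.1 TPM in Deletion I-TEL. It was the only member whose groups overlapped, through replicate 1 of Deletion I with 35.7 TPM. Hsd17b10 (X:152001845-152004442, plus strand), inside Deletion K and I-TEL, had 130.1 and 120.4 TPM in Deletion K and 148 and 136 TPM in Deletion I-TEL, far below its 16 libraries with both copies.

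Deletion I-TEL also takes in Sat1 (X:155213132-155216449), Sms (X:157443855-157492287) and Pdha1 (X:160122209-160138413), all on the minus strand. Sat1 had 74.3 and 71.6 TPM there, Sms 27.8 and 36.5 TPM and Pdha1 214 and 217 TPM. All 3 genes were below all 18 libraries with both copies, with the narrowest gap for Sms and the widest for Pdha1. Over the 10 genes and both series, 1-copy libraries were below all 2-copy libraries in 11 of 12 sets. The same count was not made for other X-linked genes, so it does not show a trait particular to these genes.

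The total level was then tested in the 17 pairs of a member and a line whose deletion covers it, each against the lines of the same series whose deletions do not overlap that line's (Deletion E against the mean of both XX groups). All 17 of 17 were lower by edgeR's quasi-likelihood test at an adjusted p of 0.05, where 81.7% of the 481 pairs of any protein-coding X-linked gene were lower. The members' median log2 change was -1.06 and that of all such pairs -0.96, where -1 is the loss of exactly 1 of 2 equal copies. The smallest drop was that of Sat1 in Deletion I-TEL, to 0.693 of the 2-copy level (log2 -0.53, adjusted p = 0.00528), and the largest were those of Hprt in Deletion D and Idh3g in Deletion E, each to 0.420 of that level (log2 -1.25). Prps1 in Deletion J (0.609), Acsl4 in Deletion I-TEL (0.586) and Acsl4 in Deletion J (0.578) came closest to Sat1.

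Per copy of the gene, 2 of the 17 pairs were higher and 1 was lower, against 11.4% higher and 8.11% lower among the 481 pairs, so the shares of the members lay near those of X-linked genes at large. On this log2 scale 0 means that the remaining copy gives what each of 2 equal copies gave, and 1 that it gives the whole 2-copy level. The members' median was -0.06 and that of all pairs 0.04. Prps1 rose by 0.29 ± 0.09 (log2 per copy, SE, adjusted p = 0.0326) in Deletion J and Sat1 by 0.47 ± 0.12 (adjusted p = 0.00833) in Deletion I-TEL, while Hprt fell by 0.25 ± 0.07 (log2 per copy -0.25, adjusted p = 0.025) in Deletion D. Each call was lost when a library of its own line was left out. Prps1 then had an adjusted p of 0.209 or 0.189, Sat1 of 0.108 or 0.058 and Hprt of 0.0885 or 0.274, and the call of Prps1 was also lost without replicate 1 or 2 of Deletion H or replicate 1 of Deletion K (0.0632, 0.0565 and 0.0622).

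**Figure D2:**
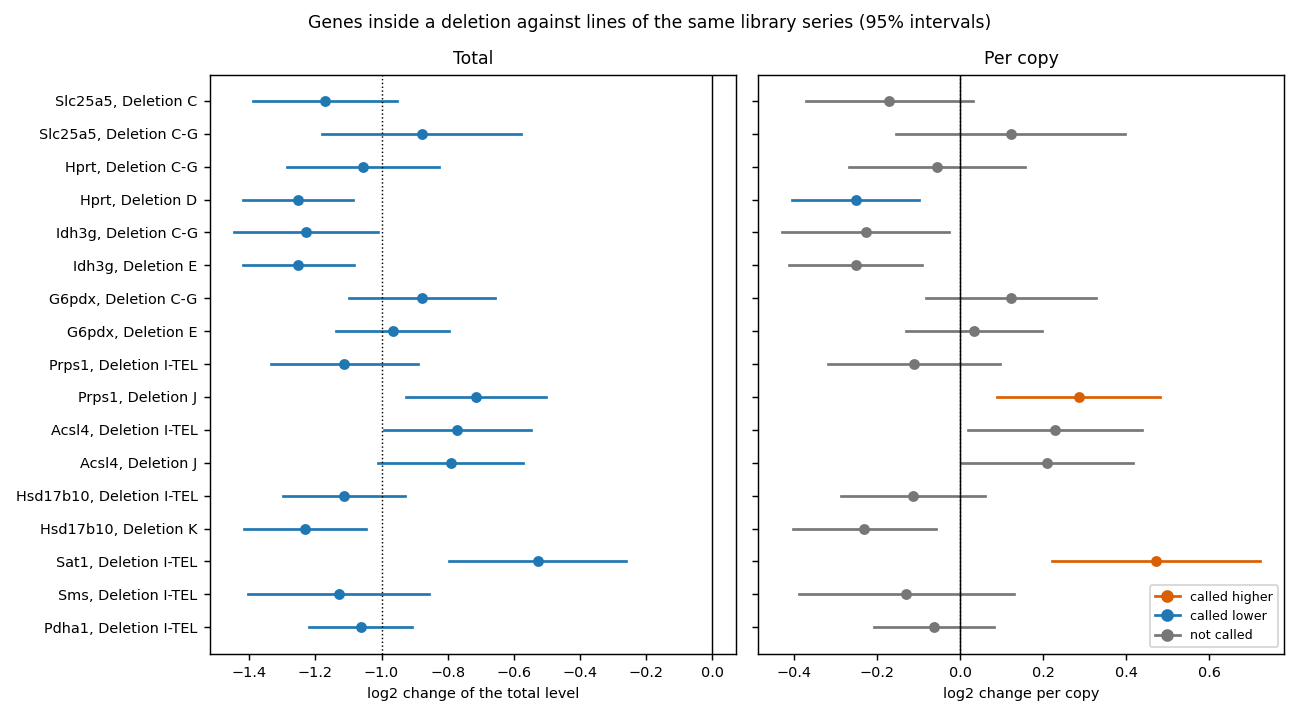
Log2 change of the total level (left) and per copy (right) for the 17 pairs of a gene and a deletion line that covers it, against lines of the same library series. Points are estimates and lines 95% intervals, with called pairs in colour, and the dotted line at -1 on the left marks the level of 1 of 2 equal copies. All total values lie below 0, while the per copy values lie on both sides of 0, from -0.25 for Hprt in Deletion D to 0.47 for Sat1 in Deletion I-TEL.

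The other 14 pairs did not pass the test per copy, and their intervals show what was within reach. In the carriers and enzymes of the mitochondrion, Slc25a5 changed by -0.17 in Deletion C (95% interval -0.37 to 0.03) and 0.12 in Deletion C-G (-0.15 to 0.40), and Pdha1 by -0.06 in Deletion I-TEL (-0.21 to 0.08). Idh3g had -0.23 in Deletion C-G (-0.43 to -0.03) and -0.25 in Deletion E (-0.41 to -0.09, adjusted p = 0.0841). The value in Deletion E passed in 3 of 12 alternative settings. It was -0.31 without replicate 1 of XX wild type and -0.32 without replicate 1 of XX Rnf12 +/-. Those libraries have the high fibroblast marker sums given above, as do both libraries of Deletion E, and the part of these sums was not tested. Hsd17b10 had -0.23 in Deletion K (-0.40 to -0.06) and -0.11 in Deletion I-TEL (-0.29 to 0.06). The interval of Slc25a5 in Deletion C narrowed to a call without replicate 1 of Deletion I (-0.20, adjusted p = 0.0401).

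Of the pentose phosphate, purine, polyamine and lipid genes, G6pdx had 0.12 in Deletion C-G (-0.08 to 0.33) and 0.03 in Deletion E (-0.13 to 0.20), Hprt -0.06 in Deletion C-G (-0.27 to 0.16), and Prps1 -0.11 in Deletion I-TEL (-0.32 to 0.09). Sms had -0.13 in Deletion I-TEL (-0.39 to 0.13). Acsl4 stood at 0.21 in Deletion J (0.0021 to 0.42) and 0.23 in Deletion I-TEL (0.02 to 0.44), in both lines above 0 with adjusted p-values of 0.135 and 0.11. None of the 17 upper limits reached the value of 1 that the whole 2-copy level would give, and the highest was 0.72 for Sat1.

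Where 2 deletion lines each hold 1 copy of the same member, the difference between them was tested directly. Prps1 was 0.37 lower in Deletion I-TEL than in J on the log2 scale (log2 -0.37, 95% interval -0.63 to -0.10, adjusted p = 0.669), although only J passed the test against other lines. The difference was 0.06 for Acsl4 between Deletion I-TEL and J (-0.22 to 0.33) and -0.16 for Slc25a5 between Deletion C and C-G (-0.48 to 0.16). Over 5 such comparisons, edgeR's test and DESeq2 each called 0, and 1 (Prps1) had an unadjusted p under 0.05. Deletion I-TEL and J also share a founder and differ in the copies of 4 members, and there Hsd17b10, Sat1, Sms and Pdha1 were lower in total in Deletion I-TEL by log2 -1.12, -0.88, -1.15 and -1.19 (4 of 4 called, against 0.461% of all expressed genes called lower). Set against J, the per copy value of Sat1 was 0.12 (-0.21 to 0.45), since Sat1 was itself higher in Deletion J, with 124 and 139.9 TPM.

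Set against XX Rnf12 +/- cells, which come from another library series, 1 of the 17 pairs was higher per copy (7.28% of the 481 pairs), Prps1 in Deletion J (0.37 ± 0.13, adjusted p = 0.0464). That call was lost in 13 of 14 refits that left out 1 library, staying only without replicate 2 of XX Rnf12 +/-. It was also lost with XX wild type as the reference, TMM factors of all genes, the limit of 10 counts in 2 libraries and the replicate block. Another 2 pairs were lower (16%), namely Hprt in Deletion D (-0.57 ± 0.09) and in the single library of Deletion C-G (-0.36 ± 0.12, adjusted p = 0.0485, with the spread borrowed from other groups).

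The 250 bases before the transcription start are shown for the 3 members called per copy in a deletion line, from RefSeq (GRCm38.p6), 5′ to 3′ on the gene's strand. The RefSeq starts of Hprt and Prps1 lie before the gene starts given above, which are from GENCODE. The 50 bases after them matched 0 GENCODE transcripts of either gene, while those of Sat1 matched 2. Capitals mark matches on either strand to any of 7 motifs: TATAAA (the TATA box), GGGCGG (an SP1 box), CCAAT (the CCAAT box), CCGGAAG (ETS), AAGATGG (YY1), CACGTG (an E-box) and the NRF1 palindrome, none of which contains another.
Hprt, chrX:52987828-52988077, plus strand: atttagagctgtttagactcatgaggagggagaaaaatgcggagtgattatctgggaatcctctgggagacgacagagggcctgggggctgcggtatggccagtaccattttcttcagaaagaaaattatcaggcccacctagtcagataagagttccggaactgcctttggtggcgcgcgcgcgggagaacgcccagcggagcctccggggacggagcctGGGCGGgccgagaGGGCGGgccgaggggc
Prps1, chrX:140456353-140456602, plus strand: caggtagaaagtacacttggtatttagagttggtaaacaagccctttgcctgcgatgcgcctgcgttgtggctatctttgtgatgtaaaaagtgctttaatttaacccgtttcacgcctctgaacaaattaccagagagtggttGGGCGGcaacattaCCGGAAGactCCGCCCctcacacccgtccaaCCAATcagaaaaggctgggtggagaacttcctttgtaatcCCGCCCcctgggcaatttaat
Sat1, chrX:155216450-155216699, minus strand: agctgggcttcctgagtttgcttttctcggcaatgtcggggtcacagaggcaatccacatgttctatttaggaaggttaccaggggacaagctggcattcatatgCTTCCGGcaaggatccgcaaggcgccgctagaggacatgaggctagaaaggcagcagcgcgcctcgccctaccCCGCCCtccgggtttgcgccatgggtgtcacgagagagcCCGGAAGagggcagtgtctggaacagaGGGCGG
The Hprt promoter held 2 GGGCGG boxes and 17 CpG, that of Prps1 3 GGGCGG boxes, 1 CCGGAAG and 1 CCAAT with 10 CpG, and that of Sat1 2 GGGCGG boxes and 2 CCGGAAG with 15 CpG. GGGCGG was present in 32.7%, CCAAT in 33.9% and CCGGAAG in 6.91% of 32851 RefSeq promoters of this length, whose median CpG number was 6. The 10 members matched 11 promoters, as Sms has a pair, and these held 7 to 32 CpG. TATAAA (in 12.4% of all promoters) and the NRF1 motif (0.782%) matched none of the 11 windows, AAGATGG (4.49%) matched that of Idh3g only, and CACGTG (6.02%) 1 of those of Sms only.

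A count of how often members were called where their copy number had not changed gives a scale for these calls. Among the 113 pairs of a member and a deletion line that keeps both copies, 8 were higher (6.71% of such pairs over all X-linked genes) and 11 lower (6.64%). Sms moved in the most lines: it rose in Deletion AB (log2 0.63, 1 library) and Deletion D (0.54) and fell in Deletion C (-0.63) and Deletion I (-0.63). Acsl4 rose in the single library of Deletion AB (0.50) and fell in Deletion C (-0.28) and Deletion I (-0.41). Deletion C held 5 of the 11 lower pairs, with Hprt (-0.20), G6pdx (-0.29) and Prps1 (-0.42) beside Acsl4 and Sms, and in that line 20.3% of all expressed genes were called lower and 20.9% higher.

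The rest of these changes spread over other lines. Prps1 was lower in Deletion E (-0.45), where its 2 libraries had 529.7 and 555 TPM against 774 and 924 TPM in XX wild type and 530.3 and 695 TPM in XX Rnf12 +/-. Slc25a5 was higher in Deletion D (0.31) and lower in Deletion I (-0.33), Pdha1 lower in Deletion H (-0.26), and Sat1 higher in Deletion H (0.43). Both lines of the second founder had higher Idh3g (0.19 in Deletion J and 0.28 in I-TEL), and Sat1 was higher in Deletion J (0.32) and G6pdx lower in Deletion I-TEL (-0.25).

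Within the deletion series, among libraries that keep both copies of both genes, some members moved together. Pearson's r of the log2 TPM levels was 0.85 for Prps1 and Sms over 16 libraries, 0.84 for Slc25a5 and Sms over 15, and 0.83 for Acsl4 and Sms over 16. It was 0.80 for Slc25a5 and Acsl4 over 13, and 0.79 for Slc25a5 and Prps1 over 13. Idh3g stayed apart from this group (-0.06 with Slc25a5 over 17 libraries and -0.15 with Prps1 over 15). Over all 26 libraries of paired reads, the gene most like each member in level, by r of log2(TPM + 1), was on the X chromosome in all 10 cases. It lay under 1 Mb away for Hsd17b10 (Smc1a, r = 0.93, 0.0364 Mb), Idh3g (Emd, r = 0.96, 0.475 Mb) and G6pdx (Haus7, r = 0.90, 0.971 Mb). For Hprt it was Htatsf1 (r = 0.91), for Acsl4 Rbm41 (0.91), for Slc25a5 Utp14a (0.93), for Prps1 Bex1 (0.82) and for Sat1 Nbdy (0.71). These libraries share the deletions, which take neighbouring genes together, and the series. The remaining cases were processed pseudogenes: Gm6292 for Pdha1 (r = 0.86) and Sms-ps for Sms (r = 0.94), where Gm6292 itself shares sequence with Sms.

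The share of the 129 allele was then compared between the lines. The study set the deletion borders from allele-specific RNA-seq, so a low share inside a deletion is no independent check. Of the reads that could be assigned to an allele, the 129 share of Hprt was 1 of 126 and 1 of 116 in Deletion D and 0 of 114 in Deletion C-G, and that of Prps1 was 1 of 308 and 2 of 392 in Deletion J and 0 of 259 and 0 of 280 in Deletion I-TEL. Sat1 was the exception, with 6 of 44 and 13 of 54 counts from the 129 allele in Deletion I-TEL, and 5 of 71 and 11 of 58 in XCastO129, which has no 129 X. Lower shares of 129 counts remained elsewhere. Acsl4 had 3 of 66 and 6 of 75 in Deletion I-TEL and 2 of 53 and 4 of 70 in Deletion J, and G6pdx 4 of 124 and 7 of 132 in Deletion E. Idh3g had 11 of 386 and 13 of 418 in Deletion E. Counts of 0 of 114, 0 of 259 and 0 of 280 allow shares of up to 2.63%, 1.16% and 1.07% (3 counts of the total).

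Where both copies were kept, the alleles did not give equal shares of the counts for every gene. The 129 allele gave 65.8% of Hprt counts in the deletion series (95% Wilson interval 64.6% to 67.1%, 5396 allelic counts in 17 libraries) and 64.1% in the XX series, 64.8% and 68.9% of Sat1 counts, and 62.1% and 63.3% of Pdha1 counts. Sms was the reverse, at 42.0% (40.4% to 43.6%) and 40.7%. Hsd17b10 (55.0% and 56.7%) and G6pdx (53.8% and 54.8%) leaned slightly to the 129 allele and Idh3g (50.8% and 52.0%) was close to even. Prps1 (53.2% and 47.7%) and Acsl4 (46.4% and 51.3%) stood on either side of 50% in the 2 series. Slc25a5 had no allelic count in any library with both copies. The per copy value assumes 2 equal copies: a Cast copy that stayed at its own 2-copy level would give -0.55 for Hprt, -0.51 for Sat1, -0.40 for Pdha1 and 0.21 for Sms in the deletion series. The intervals and floors cover counting error only, and these values also take every read as assigned to the right allele. In XCastO129, which has no 129 X, 5 of 71 and 11 of 58 counts of Sat1 were of the 129 allele. The study ascribed a slight excess of the Mus allele in its single-cell data most likely to mapping. The part of read assignment in the shares given here was not tested.

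**Figure D3:**
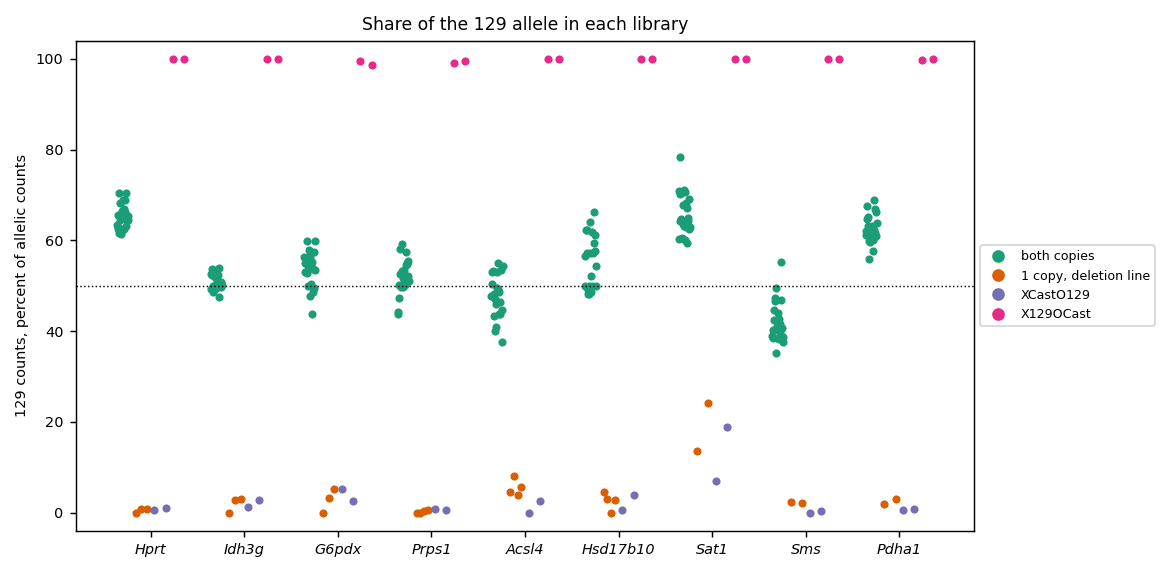
Share of the 129 allele among allelic counts (y axis, percent) in each library with at least 20 allelic counts, for the 9 genes with such counts. Points are libraries with both copies, deletion lines with 1 copy, XCastO129 and X129OCast. Deletion lines and XCastO129 lie at or below 8.0% except for Sat1, X129OCast lies near 100, and libraries with both copies lie above 50 for Hprt, Sat1 and Pdha1 and mostly below it for Sms.

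Counts of the Cast allele alone measure the copy that remains, with no division by copies. Over 15 covered pairs with enough Cast counts (all but Slc25a5), the median log2 change against the same series was 0.03, from -0.40 for Idh3g in Deletion C-G to 0.60 for Sat1 in Deletion I-TEL. With edgeR's quasi-likelihood test 0 of 15 passed, 2 were higher and 1 lower at an unadjusted p under 0.05, and DESeq2 called 0 higher. Over 260 such pairs of X-linked genes, 2.69% were higher and 1.15% lower at the adjusted p, the background for the 0 of 15. No background was counted for the unadjusted p. The 3 were Prps1 in Deletion J (0.35 ± 0.12, adjusted p = 0.081), Sat1 in Deletion I-TEL (0.60 ± 0.25, adjusted p = 0.185) and Idh3g in Deletion C-G (-0.40 ± 0.14, adjusted p = 0.336). Hprt, which was lower per copy in Deletion D, had a Cast value of 0.16 there (95% interval -0.08 to 0.40), and Pdha1 in Deletion I-TEL had 0.20 (-0.01 to 0.42). Against XX Rnf12 +/- the Cast counts of Hprt were lower in Deletion D (-0.65, adjusted p = 0.00366) and in the single library of Deletion C-G (-0.78, adjusted p = 0.0202). They were lower also in lines of the deletion series that keep both copies of Hprt, by -0.83 in Deletion C, -0.75 in Deletion J, -0.69 in Deletion K and -0.88 in Deletion I-TEL. The counts are few, 79 Cast counts for Sat1 and 240 for Hprt over both libraries of those lines, which limits what this test can show.

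The XO lines hold 1 copy of all 10 members, and their total RNA was lower in 9 of 10 in each line against XX Rnf12 +/- (86.9% of 374 X-linked genes in XCastO129 and 86.6% in X129OCast). The exceptions were Sms in XCastO129 (log2 total -0.10, adjusted p = 0.615) and Slc25a5 in X129OCast (-0.14, adjusted p = 0.362). Hprt had 250.1 and 262 TPM in XCastO129 and 299 and 281 TPM in X129OCast against 994 and 1169 TPM in XX Rnf12 +/-, the deepest drop of the 10. Slc25a5 had 994 and 1008 TPM in XCastO129 and 1133 and 1084 TPM in X129OCast against 1396 and 1308 TPM. Sms had 64.1 and 54.2 TPM in XCastO129 and 49.4 and 45.7 TPM in X129OCast against 70.4 and 65.9 TPM.

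Per copy, members were found on both sides. In XCastO129, 3 of 10 were higher (19.5% of X-linked genes) and 1 lower (28.1%), and in X129OCast 5 were higher (21.4%) and 2 lower (40.1%). Slc25a5 rose in both lines (0.67 ± 0.12 in XCastO129 and 0.86 ± 0.12 in X129OCast), as did Acsl4 (0.58 ± 0.13 and 0.69 ± 0.13) and Sms (0.90 ± 0.15 and 0.63 ± 0.15). G6pdx (0.43 ± 0.09) and Pdha1 (0.53 ± 0.09) rose in X129OCast, with 0.21 (adjusted p = 0.0761) and 0.17 (adjusted p = 0.125) in XCastO129. Hprt fell in both (-0.98 ± 0.09 and -0.75 ± 0.09) and Hsd17b10 in X129OCast (-0.29 ± 0.10, adjusted p = 0.0249). Idh3g (-0.16 and -0.18), Prps1 (-0.05 and -0.01) and Sat1 (-0.07 and -0.23) did not pass in either line. The members' medians were 0.06 and 0.21, those of all X-linked genes -0.15 and -0.22.

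**Figure D4:**
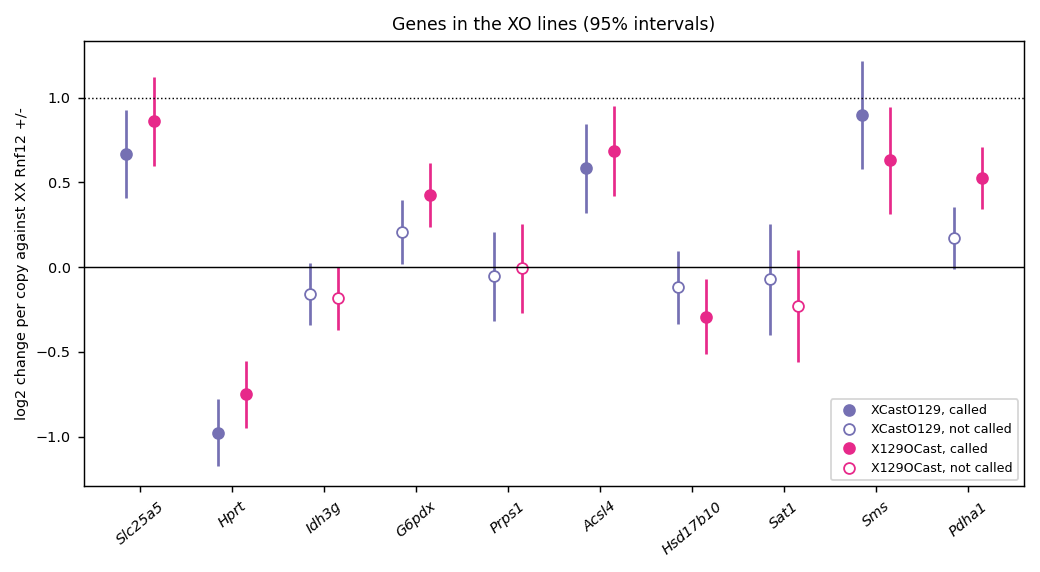
Log2 change per copy of the 10 genes in XCastO129 and X129OCast against XX Rnf12 +/- (y axis), with 95% intervals. Filled points passed the test, the line at 0 marks the level of each of 2 equal copies and the dotted line at 1 the whole 2-copy level. Slc25a5, Acsl4 and Sms lie above 0 in both lines and Hprt below it in both.

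Several of these calls depended on the XX reference or on 1 library. Against XX wild type, 17.6% of X-linked genes were higher and 33.4% lower in XCastO129, and 20.3% and 43% in X129OCast. Slc25a5 (0.56 and 0.76) was still higher and Hprt (-0.81 and -0.59) lower in both lines. Acsl4 in XCastO129 (0.29, adjusted p = 0.0655), Sms in X129OCast (0.25, adjusted p = 0.177) and Pdha1 in X129OCast (0.18, adjusted p = 0.0842) no longer passed, while G6pdx passed also in XCastO129 (0.38) and Prps1 was lower in both (-0.50 and -0.45). The call of Hsd17b10 was lost without replicate 2 of XX Rnf12 +/- (-0.13, adjusted p = 0.378) or of X129OCast (-0.24, adjusted p = 0.147). Idh3g in X129OCast passed as lower without replicate 1 of XX Rnf12 +/- (-0.29, adjusted p = 0.0275), and Pdha1 in XCastO129 as higher without its replicate 2 (0.27, adjusted p = 0.0396). The total level of Slc25a5 in XCastO129 was lower with an adjusted p of 0.0387, and those of Acsl4 and Sms in X129OCast with 0.0421 and 0.0458.

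The XO lines keep different alleles, and compared with each other only Pdha1 of the 10 members passed. It had 248 and 217 TPM in XCastO129 and 288 and 288 TPM in X129OCast, a difference of -0.35 ± 0.09 (log2, XCastO129 minus X129OCast, adjusted p = 0.0198, 4.48% of all expressed genes lower), which was lost without replicate 2 of XCastO129 or either library of X129OCast. The groups did not overlap. The higher line keeps the 129 X, the allele that gave more Pdha1 counts in XX cells, and it also lacks Rnf12. Rlim had 3.53 TPM in both X129OCast libraries and 71.2 and 77.8 TPM in XCastO129. The retained allele and the Rnf12 state cannot be told apart in this comparison. Hprt, which leaned as far to the 129 allele, differed by -0.23 (95% interval -0.43 to -0.03, adjusted p = 0.147), Sat1 by 0.16 (-0.18 to 0.49) and Sms by 0.27 (-0.05 to 0.59).

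Counts of the retained allele, scaled to autosomal counts of the same allele, gave a second view. In XCastO129 the Cast counts of Hsd17b10 (0.88), Sms (0.65) and Pdha1 (0.48) were higher than in XX Rnf12 +/- and those of Hprt (-0.66) and Prps1 (-0.70) lower, with 17.9% and 18.4% of 212 X-linked genes called. In X129OCast the 129 counts of Sms were higher (1.07) and those of Prps1 (-0.56) and Sat1 (-1.60) lower, with 21.8% and 24.4% of 234 X-linked genes called. With this reference Sms alone was called higher in both lines and Prps1 alone lower in both. Scaled with factors from all reads in place of those of the allele, 13 values in place of 4 were higher. The share of all X-linked genes called with that scaling was not counted, so the 13 cannot be read as a trait of the members. Against XX wild type, Sms (0.13) and Pdha1 (-0.12) no longer passed in XCastO129, and G6pdx in place of Sms was called higher in both lines (0.55, adjusted p = 0.0134, in XCastO129 and 0.70, adjusted p = 0.00549, in X129OCast). Prps1 was still lower in both (-1.24 and -0.89). Single reads gave 21.9% to 22.0% of counts an allele and paired reads 12.18% to 12.65%, and genes differ in where their SNPs lie.

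Sequence copies of the members elsewhere in the genome set a limit on some of these values. Of the 50-base stretches of each transcript, 46.6% of Slc25a5 occur in another gene, 28.1% of Sms, 10.1% of Prps1 (in Prps1l3), 7.50% of G6pdx (in G6pd2), 6.86% of Sat1 and 0.464% of Pdha1, and 0% of Hprt, Idh3g, Acsl4 and Hsd17b10. The levels of Slc25a5 and Sms are uncertain on this ground. The XO libraries are single reads and the others paired, and the part of read type in these levels was not tested. Sms shares most with Sms-ps, a processed pseudogene at X:62775585-62776685 inside Deletion D. Sms-ps had 129 and 125 TPM in Deletion D, which removes 1 copy of it, above the 75.2 and 65.3 TPM of XX Rnf12 +/-, and 36.3 and 41.3 TPM in Deletion I-TEL, which keeps Sms-ps and removes 1 copy of Sms. In XCastO129 it had 131 and 108 TPM and in X129OCast 114 and 112 TPM. With the counts of members and their processed pseudogenes added, Sms changed per copy by 1.07 in XCastO129, 0.93 in X129OCast and -0.19 in Deletion I-TEL.

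**Figure D5:**
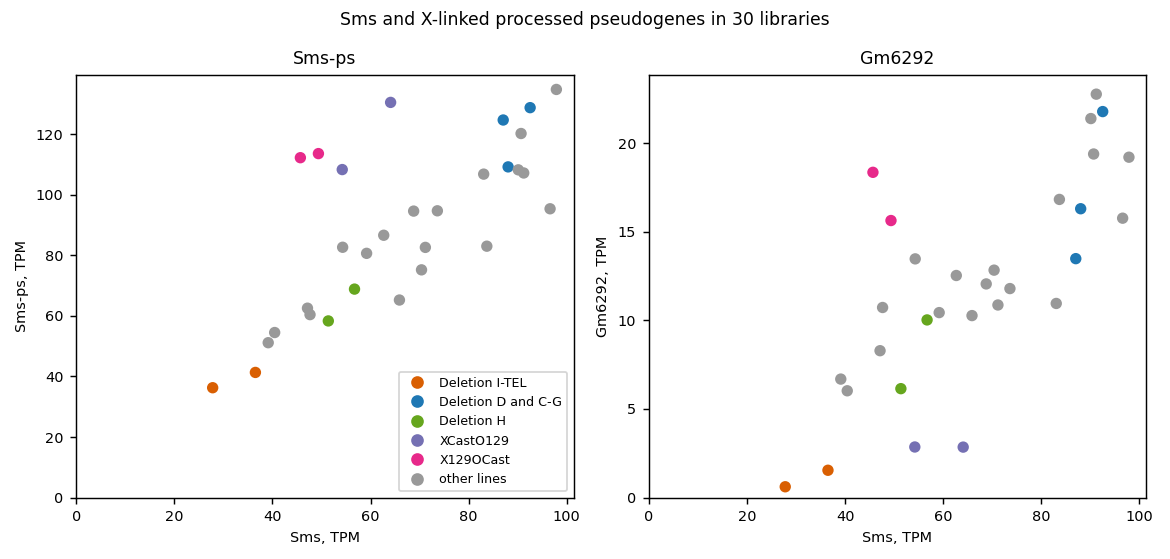
Level of the processed pseudogenes Sms-ps (left) and Gm6292 (right) against that of Sms, in TPM, in 30 libraries. Sms-ps followed Sms in the paired libraries, was lowest in Deletion I-TEL and lay above that trend in the XO lines, while Gm6292 was at 2.85 TPM in both XCastO129 libraries and at 15.6 and 18.4 TPM in X129OCast.

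Between XX Rnf12 +/- and XX wild type, 1 of the 10 members was called. Pdha1 fell by 0.34 ± 0.09 (log2 -0.34, adjusted p = 0.0377) in XX Rnf12 +/-, with 438 and 448 TPM against 559.5 and 586 TPM (1.38% of all expressed genes lower), but the call was lost when any 1 of these 4 libraries was left out (adjusted p from 0.0766 to 0.261). Prps1 had -0.44 ± 0.12 (adjusted p = 0.062), and passed without replicate 1 of XX wild type (-0.57, adjusted p = 0.0442) or replicate 2 of XX Rnf12 +/- (-0.65, adjusted p = 0.0193). Of these groups, both libraries numbered 1 had the high fibroblast marker sums and both numbered 2 low ones (767 and 803 TPM), and same-numbered libraries deviated together (r = 0.70 over genes). With the number as a block in these groups alone, a setting chosen after seeing the data, both Pdha1 (adjusted p = 0.029) and Prps1 (-0.45, adjusted p = 0.0107) were lower. The labels do not say that these numbers pair the libraries, and the part of the RNA behind these marker sums was not tested. Since X129OCast and all deletion lines carry the Rnf12 deletion and XX wild type does not, the 2 references differ by it.

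Some members have expressed relatives that carry out the same step. Slc25a4, the translocase of heart and muscle, stood at 292 to 737 TPM in paired libraries (median 366), Prps1l3 at 146 to 247 TPM, and Prps2, which is X-linked too, at 41.2 to 127 TPM. Acsl3 had 55.0 to 92.1 TPM, above Acsl4 in median (71.2 TPM). G6pd2 was low at 1.33 to 7.50 TPM, and Pdha2, Slc25a31 and Sat2 did not pass the expression limit.

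The other enzymes of these routes were listed as 72 genes in 8 lists, of which 69 were expressed, and of them Pdk3 and Prps2 are X-linked. In Deletion C, 8 were higher and 21 lower (20.9% and 20.3% of all expressed genes), and 9 of the 15 genes of PRPP and purine synthesis were lower with none higher in that list (0 higher also at an unadjusted p under 0.05 and with DESeq2). H6pd, the pentose phosphate dehydrogenase of the endoplasmic reticulum, fell the most (-1.04), followed by Pfas of purine synthesis (-0.63) and the antizyme Oaz2 (-0.62). Azin1 (0.66), which blocks antizymes, Acsl1 (0.53) and Acat1 (0.49) rose. In Deletion D, 5 were higher and 7 lower (5.53% and 11.4%): the polyamine enzymes Odc1 (0.40) and Srm (0.31) and Prpsap1 (0.25) rose, and Acsl1 (-0.88), the pyruvate dehydrogenase kinase Pdk4 (-0.71) and the RNase P subunit Trmt10c (-0.44) fell.

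Deletion J and I-TEL showed 7 higher and 12 lower (12.4% and 11.8%) and 8 higher and 11 lower (13% and 9.07%). Slc25a4 (1.04 and 0.70), the pyruvate dehydrogenase phosphatase Pdp2 (0.75 and 0.75) and the spermine oxidase Smox (0.57 and 0.56) were higher in both, and Pdk2 (-1.30 and -1.40), Rpe (-0.76 and -0.77) and Odc1 (-0.60 and -0.89) lower in both. The lines share their founder and reference lines, and the median change of chromosome 8, which holds Slc25a4 and Pdp2, was 0.41 and 0.42. Deletion C-G had 2 higher (Pdk2, 1.17, and Prps1l3, 0.37) and 1 lower (Dlst, -0.33), with 1.4% and 0.547% of all genes called. Deletion E had 2 higher (Prorp, 0.39, and Prps1l3, 0.32) and 1 lower (Dlst, -0.27), with 1.49% and 1.18% called. In Deletion K edgeR's test called 0 of 69, with 5 higher and 7 lower at an unadjusted p under 0.05 and 0 higher and 3 lower by DESeq2 (1.41% and 0.188% of all genes called by edgeR).

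In the XO lines 18 partners were higher and 14 lower in XCastO129 (19.8% and 21.3% of all expressed genes) and 22 higher and 20 lower in X129OCast (25.5% and 27.9%). Odc1, the first enzyme of polyamine synthesis, was the highest in both (1.13 and 1.32), and Amd1, which supplies the aminopropyl groups that Sms uses, rose by 0.87 in XCastO129. Slc25a4, on chromosome 8, was lower in X129OCast (-1.60), and the part of chromosome 8 as a whole was not tested. Between XX Rnf12 +/- and XX wild type, 4 partners were higher and 1 lower (1.68% and 1.38%), namely Prorp (0.59), Odc1 (0.58), Dld (0.50), Prps1l3 (0.34) and Dlst (-0.38). All 5 lie on chromosome 12, whose median change was 0.06, a value that cannot show a change of part of the chromosome. Prorp, Odc1, Prps1l3 and Dlst are also among the partners named above for other lines. The part of chromosome 12 copy number in these calls was not tested.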

How the data were processed

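Bulk RNA-seq of 30 libraries in 17 groups was analysed. The authors trimmed the reads (TrimGalore), aligned them with HISAT2 to mm10 masked at SNPs, split them by allele with SNPsplit and counted them on exons by strand. The processing notes of the submitters list Trim Galore 0.6.7, HISAT2 2.2.1, SAMtools 1.10 and HTSeq 0.12.4, while the methods name featureCounts. The deposited values are raw counts per gene and library, of all reads, 129 reads and Cast reads, in 90 columns, without normalization. MEF depletion was by pre-plating and libraries were TruSeq stranded mRNA.

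Of 55421 genes, 55240 matched GENCODE M21, and the 181 unmatched held at most 0.00401% of a library's counts. Copies of each gene in each line came from the deletion borders that the study lists for its cell lines, which it set from allele-specific RNA-seq. TPM were computed on the union of exons. The 11703 genes with a mean above 5 TPM in XX Rnf12 +/- were fitted with edgeR 4.0.16 (R 4.3.3, quasi-likelihood test) on all 30 libraries at once, with 1 term per group, TMM factors of autosomal genes and, for values per copy, the log of copies over 2 in the offset. P-values were adjusted by Benjamini-Hochberg over all fitted genes and called at 0.05. Allelic counts were tested in the same way for genes with at least 20 counts of that allele in both XX Rnf12 +/- libraries (7087 genes for Cast, 7561 for 129). The reference "same series" is the mean of deletion series lines whose deletion does not overlap, and the spread between these lines does not enter the p-values. Background shares for covered genes count protein-coding X-linked genes. The edgeR fits of all reads, in total and per copy, were tested on simulated counts for the contrast of Deletion J with its series, with the same spread for every gene. The allelic fits, the replicate block and the fits that leave out libraries were not tested in this way.

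Alternatives were DESeq2 1.42.0, XX wild type as the reference, TMM factors of all genes or all reads, genes with at least 10 counts in 2 libraries, a minimum of 10 allelic counts, a replicate block, a fit of only the groups compared, and leaving out each library. A setting that adds processed pseudogenes to their parent was chosen after seeing the data. All members are named in the text, with their close paralogs, the partners of largest change among those called (up to 3 each way in a line) and the gene of most similar level. The members and lists were chosen with earlier results of these data known. Same-numbered libraries were checked for pairing: over 78 pairs of groups, r of their deviations ranged from -0.35 to 0.70 and exceeded 0.1 in 14, so the numbers do not pair the libraries over the series. The 0.70 was that of XX wild type and XX Rnf12 +/-, for which a block within these groups was added after seeing the data. No 2 libraries of the same group agreed within sampling noise. The depth of 8816184 to 21181405 counts sets the precision, and the allelic share of counts was 12.18% to 12.65% in paired and 21.9% to 22.0% in single reads.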

Additional observations from a re-analysis of the deposited data

Results flagged for a closer look

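Pdha1, the catalytic alpha subunit of pyruvate dehydrogenase, was the only member that differed between 2 lines with 1 copy of it, out of 15 such comparisons. Its per copy level was lower in XCastO129 than in X129OCast by edgeR's quasi-likelihood test (log2 -0.35, adjusted p = 0.0198, and adjusted p = 0.00233 with DESeq2). The libraries of XCastO129 had 248 and 217 TPM and those of X129OCast 288 and 288 TPM, and the comparison rests on 2 libraries a line. Without replicate 2 of XCastO129, or without either library of X129OCast, 0 of the comparisons passed. Beside it, the 129 allele gave 62.1% of Pdha1 counts in the deletion series and 63.3% in the XX series, and the part of that difference between alleles was not tested. X129OCast also lacks Rnf12, which XCastO129 keeps, so the retained allele and the Rnf12 state cannot be told apart.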

How the results depend on the processing

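With XX wild type as the reference, 3 in place of 5 members were higher per copy in X129OCast, and 0 in place of 1 pair of a member and a covering line was higher than the XX cells. That last count was also 0 with TMM factors of all genes, with a filter that kept genes reaching 10 counts in 2 libraries and with the replicate block, and 1 with DESeq2. Between XX Rnf12 +/- and XX wild type, DESeq2 called 2 members and a fit of these groups alone 0, against 1, and a replicate block in these groups alone, added after seeing the data, gave 2 (Pdha1 and Prps1). Scaled with TMM factors of all reads, 13 in place of 4 values of the retained allele were higher in the XO lines, with no share of all X-linked genes counted beside it. The causes were not tested. The replicate block gave 17 in place of 19 calls in lines with both copies, 88 in place of 85 partner calls and 5 in place of 4 retained-allele values, and moved no count other than these and the 1 above. The numbers do not pair the libraries over the series.

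Leaving out 1 library at a time gave 1 to 2 covered pairs higher per copy within a library series, the 1 being without Deletion E replicate 1, Deletion K replicate 1 or either replicate of Deletion H, I-TEL or J. Against the XX cells it gave 0 to 1, the 1 being without XX Rnf12 +/- replicate 2 alone. It gave 16 to 17 lower in total, 13 to 23 calls in lines with both copies, and 69 to 94 partner calls. The XO lines gave 3 to 4 members higher per copy in XCastO129, 5 in every refit in X129OCast, and 14 to 17 lower in total (18 with all libraries). Deletion I-TEL had 3 to 4 members lower than Deletion J. The retained-allele count was 2 to 5, the 2 being without XCastO129 replicate 1. The Cast-allele count of covered pairs was 0 to 1, the 1 being without Deletion F replicate 1. The XX comparison gave 0 to 1, the 0 being without XX wild type replicate 2 or XX Rnf12 +/- replicate 1, and the 1 in the other refits was Prps1 and not Pdha1. The calls between lines with 1 copy were 0 to 1, the 0 being without XCastO129 replicate 2 or either X129OCast replicate. For single members, 480 of 510 alternative values kept their side of the threshold, 21 no longer passed and 9 newly passed. Of the results called in the main fit, 0 reversed direction. Results that were not called could change sign and still be counted as kept. Examples are Pdha1 in XCastO129 (0.17, alternatives from -0.17 to 0.27) and G6pdx in Deletion E (0.03, alternatives from -0.04 to 0.09). A group of 2 libraries limits the precision, and a group left with 1 library is assumed to vary like the others.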

Other observations

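The processed pseudogenes that share sequence with Slc25a5 and Sms, which carry no protein, differed between read types. Gm5529 had a median of 68.4 TPM in the paired libraries and 14.6 TPM in the single-read XO libraries, and Gm5560 had 11.2 and 51.0 TPM. G6pd2, the autosomal relative of G6pdx, had 1.33 to 7.50 TPM in the paired libraries and 0 to 0.266 TPM in the XO libraries. Read type, line and series cannot be told apart here.

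Deletion H removes 1 copy of Gm6292, the other X-linked pseudogene of Sms, and left 10.0 and 6.1 TPM of it, while Deletion I-TEL, which keeps Gm6292 and removes 1 copy of Sms and Pdha1, had 0.6 and 1.5 TPM. XCastO129 had 2.85 TPM in both libraries, where XX Rnf12 +/- had 12.8 and 10.3 TPM.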
